A study of Mus musculus with 12 samples.

Results

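Cytokines that signal through the common gamma chain or through gp130 are received by a small family of receptor chains, and the mRNA of 10 of these chains was followed in mouse CD4+ T cells: *Il2rg* (the common gamma chain), *Il2ra*, *Il2rb*, *Il15ra*, *Il4ra*, *Il9r*, *Il21r*, *Il6st* (gp130), *Il6ra*, and *Il27ra*. The genes were chosen by name, by a rule that uses no measured value but with earlier results of these data known, and are 10 of the 26608 genes in the count tables. All 10 passed the filter on low counts, which kept 16035 genes. RNA sequencing was performed on CD4+ YFP(FOXP3)- T cells, sorted as negative for the YFP reporter of FOXP3, from spleen pooled with lymph nodes (cervical and inguinal) of mice aged 14 weeks, with 1 library from each of 4 mice per group. WT mice were Foxp3Cre WT, which carry the Foxp3 knock-in of the YFP-Cre fusion with intact *Tet2* and *Tet3*. DKO-moderate and DKO-severe mice were both Foxp3Cre Tet2/3 flox/flox, of the same genotype, and were divided by the authors by how many cells were recovered from spleen and lymph nodes. All 3 groups therefore carry the Cre, which is driven by *Foxp3* and is considered leaky. Deletion in the DKO mice is thus aimed at cells that express *Foxp3* or once did. Per the paper, the sorted WT cells were mostly naive T cells. For the DKO mice it describes a likely mixture of ex-Treg cells that had lost FOXP3 and mostly activated or memory conventional CD4+ T cells. The comparisons ask how the receptor genes differ between mice with and without the floxed alleles, and between mice of moderate and severe disease.

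The common gamma chain is the shared signalling subunit of the receptors for IL-2, IL-4, IL-7, IL-9, IL-15, and IL-21, each of which adds a chain of its own, and it is coupled to the kinase JAK3. IL-2 binds a complex of IL-2Rα (CD25, from *Il2ra*), IL-2Rβ (CD122, from *Il2rb*), and the common gamma chain. IL-15 uses the same beta and gamma chains with its own alpha chain, which presents IL-15 to neighbouring cells. gp130 has the same position in the receptors for IL-6 and IL-27, where it pairs with ligand-binding chains encoded by *Il6ra* and *Il27ra*, and it is coupled to JAK1. In CD4+ T cells, IL-2 signals mainly through STAT5, IL-4 through STAT6, and IL-6 and IL-21 through STAT3. *Il4ra*, *Il6ra*, and *Il7r* are known as highly expressed in naive T cells, and CD25 and CD122 as raised on activated T cells and Treg cells.

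The depth of the libraries was 29254260 to 42133536 reads assigned to genes (median 36919028), and levels are given as CPM, read counts scaled to a common library size with TMM factors. *Cd4* was read at 864 to 1166 CPM in WT, 1225 to 1368 CPM in DKO-moderate, and 938 to 1325 CPM in DKO-severe, and *Foxp3* at 3.10 CPM or less in every library. *Tet2* was at 43.3 to 62.2 CPM in WT, 34.8 to 57.8 CPM in DKO-moderate, and 56.7 to 65.8 CPM in DKO-severe, and *Tet3* at 167 to 210.4, 90.3 to 185, and 87.8 to 102 CPM, respectively. Counts over whole genes do not separate the deleted exons, so these values do not check the genotype. The summed level of 9 neutrophil genes was 0 to 1.67 CPM in WT and 0.160 to 8.43 CPM in DKO-moderate but 2227, 819.6, 23.6, and 9.88 CPM in DKO-severe 1 to 4, and DKO-severe 1 and 2 therefore stand apart. The summed level of 8 B cell genes was highest in WT 3 (208 CPM) and DKO-severe 2 (317 CPM). The summed level of 5 naive T cell genes (*Ccr7*, *Lef1*, *Tcf7*, *S1pr1*, and *Klf2*) was 2991 to 3650 CPM in WT, 1834 to 2701 CPM in DKO-moderate, and 1329 to 1506 CPM in DKO-severe, with no overlap between the groups. In such bulk samples, fewer cells of a type and less RNA per cell cannot be told apart.

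The 10 genes lie on 8 chromosomes (GRCm38, GENCODE M21). *Il2ra* (chr2:11642807-11693193, plus strand) and *Il15ra* (chr2:11705290-11734317, plus strand) are neighbours, 12096 bases apart, and so are *Il4ra* (chr7:125552120-125579474, plus strand) and *Il21r* (chr7:125603429-125633570, plus strand), 23954 bases apart. The others are *Il2rg* (chrX:101264378-101268255, minus strand), *Il2rb* (chr15:78479256-78495271, minus strand), *Il9r* (chr11:32187541-32200279, minus strand), *Il6st* (chr13:112464070-112510086, plus strand), *Il6ra* (chr3:89864059-89913196, minus strand), and *Il27ra* (chr8:84030294-84042589, minus strand).

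TET enzymes oxidize methylated cytosines, mainly in CpG dinucleotides, and the promoter windows of the receptor genes differ widely in how many CpG they hold. The windows, taken from RefSeq (GRCm38.p6), run from 250 bases before to 50 bases after the transcription start. Over 32851 such windows the median was 7 CpG, with quartiles at 3 and 20. Windows were found for 8 of the 10 genes and not for *Il2rb* and *Il27ra*. The 4 windows printed are those of *Il2ra*, the member that rose most, and of *Il4ra*, *Il6ra*, and *Il6st*, which fell together in DKO-severe. *Il4ra*, *Il6ra*, and *Il6st* had the lowest DKO-severe to WT ratios once *Il9r*, at 45.5% of WT, was set aside. *Il9r* was weakly expressed (mean of 17.1 CPM in WT), but *Il2ra* was lower still in WT (11.8 CPM). The 4 windows are given 5′ to 3′ on the strand of the gene, with each CpG in capitals.
*Il2ra* (chr2:11642542-11642841, plus strand): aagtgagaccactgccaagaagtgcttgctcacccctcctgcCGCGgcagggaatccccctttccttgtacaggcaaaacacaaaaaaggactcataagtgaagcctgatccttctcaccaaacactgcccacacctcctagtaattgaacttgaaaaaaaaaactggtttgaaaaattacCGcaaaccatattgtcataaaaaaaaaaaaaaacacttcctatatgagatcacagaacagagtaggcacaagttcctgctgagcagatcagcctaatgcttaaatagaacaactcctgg
*Il4ra* (chr7:125552021-125552320, plus strand): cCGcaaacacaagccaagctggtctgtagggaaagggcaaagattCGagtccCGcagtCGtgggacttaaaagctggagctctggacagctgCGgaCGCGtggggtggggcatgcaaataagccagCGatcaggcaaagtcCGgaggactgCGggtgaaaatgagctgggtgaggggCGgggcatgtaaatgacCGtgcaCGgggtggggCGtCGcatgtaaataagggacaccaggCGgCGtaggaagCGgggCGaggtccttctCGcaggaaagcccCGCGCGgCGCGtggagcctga
*Il6ra* (chr3:89913147-89913446, minus strand): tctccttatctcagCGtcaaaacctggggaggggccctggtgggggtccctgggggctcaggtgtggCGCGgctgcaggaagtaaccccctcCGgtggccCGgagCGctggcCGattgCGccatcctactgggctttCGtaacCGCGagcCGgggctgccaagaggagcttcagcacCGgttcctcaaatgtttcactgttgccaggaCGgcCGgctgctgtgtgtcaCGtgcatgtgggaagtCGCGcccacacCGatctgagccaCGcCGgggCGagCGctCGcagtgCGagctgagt
*Il6st* (chr13:112463820-112464119, plus strand): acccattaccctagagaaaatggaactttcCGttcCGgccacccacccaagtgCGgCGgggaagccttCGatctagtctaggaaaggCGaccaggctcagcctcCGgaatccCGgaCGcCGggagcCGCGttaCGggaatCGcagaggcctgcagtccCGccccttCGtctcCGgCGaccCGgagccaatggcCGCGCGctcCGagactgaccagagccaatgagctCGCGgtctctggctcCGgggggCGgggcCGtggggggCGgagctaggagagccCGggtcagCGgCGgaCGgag
The *Il2ra* window holds 3 CpG, whereas those of *Il4ra* and *Il6ra* hold 25 each and that of *Il6st* holds 33, above the count in 91.4% of all windows. The remaining windows hold 3 CpG for *Il2rg* and 5 for *Il9r*, which also fell in DKO-severe, 7 for *Il21r*, and 6 and 15 for the 2 starts of *Il15ra*. Both strands were searched for TTCNNNGAA (the GAS element bound by STAT factors, in 8.3% of all windows), TGANTCA (AP-1, 7.81%), GTAAACA (FOXO, 3.65%), CTTTGAT (TCF/LEF, 3.73%), and TGACGTCA (CRE, 1.79%). The 2 matches were an AP-1 element in the second *Il15ra* window, 30 bases before the start, and a FOXO element in the *Il21r* window, 38 bases before the start. A match is a description of the letters and not a bound site, and methylation was not measured in these libraries.

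The receptor family did not move as a block. In DKO-severe mice the mRNA of the IL-2 receptor alpha and beta chains was 8.23-fold and 3.54-fold that of WT, the mRNA of the IL-4 receptor alpha chain was 24.8% of WT, and that of *Il6ra* and *Il6st* was 50.3% and 53.1% of WT. Of the 10 genes, 2 rose (*Il2ra* and *Il2rb*), 6 fell (*Il4ra*, *Il9r*, *Il6ra*, *Il6st*, *Il2rg*, and *Il27ra*), and 2 did not pass the test (*Il15ra* and *Il21r*) in DKO-severe compared to WT, by edgeR's quasi-likelihood test at an adjusted p of 0.05. These counts stand beside a background of 52.6% of all tested genes that changed, 26.6% that rose, and 25.9% that fell. In DKO-moderate compared to WT, *Il2ra* and *Il2rb* rose, *Il4ra* fell, and 7 did not pass, beside 17.1% of all tested genes that changed, 12.3% that rose, and 4.74% that fell. Between DKO-severe and DKO-moderate, *Il2ra* rose, *Il4ra*, *Il2rg*, and *Il27ra* fell, and 6 did not pass, beside 20.1% that changed, 9.41% that rose, and 10.7% that fell. The median log2 fold change of the 10 genes was -0.41, -0.01, and -0.40 in these 3 comparisons, beside -0.01, 0.00, and -0.03 over all tested genes. When counts were scaled by library size alone, the share of called genes that rose in DKO-severe compared to WT was 66.5%, in place of 50.7%, and compared to DKO-moderate it was 64.9%, in place of 46.9% (59.6% with the size factors of DESeq2). Both comparisons with WT use the same 4 WT libraries.

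**Figure D1:**
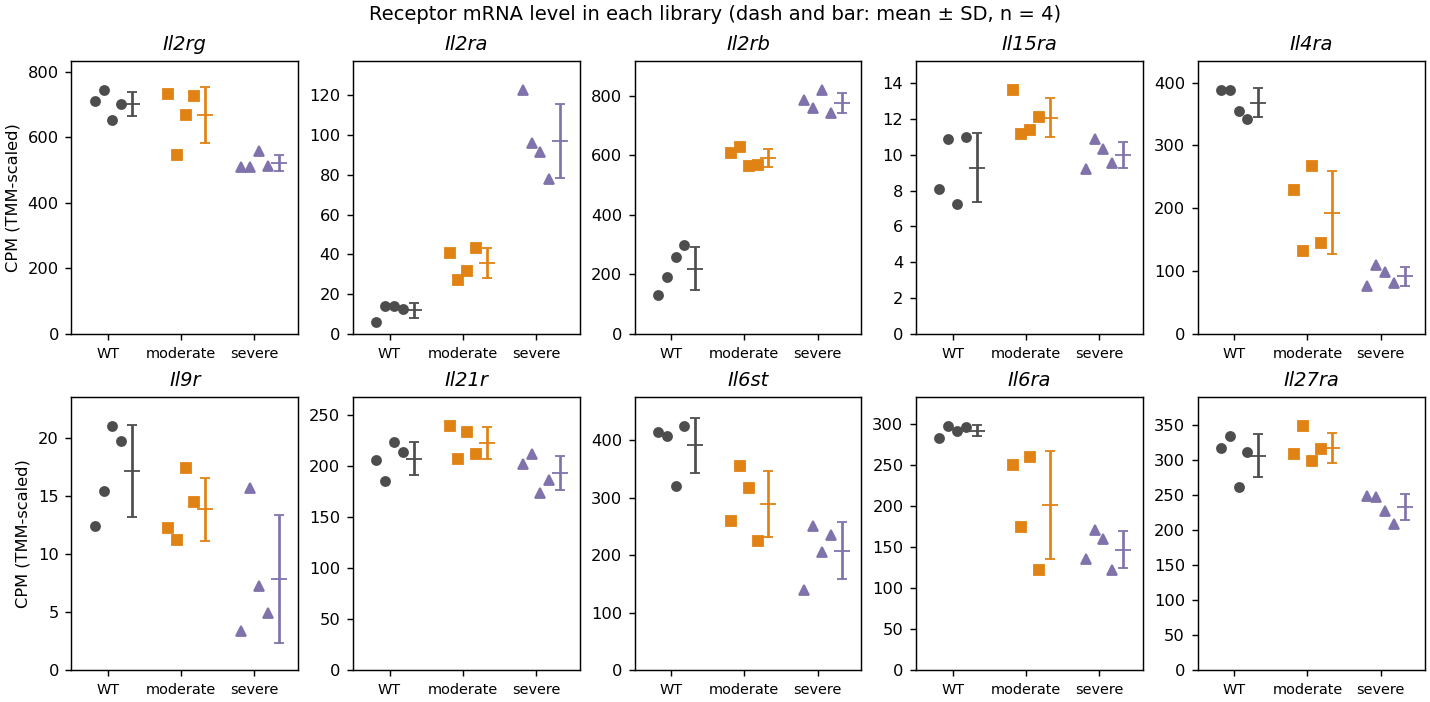
CPM (TMM-scaled, linear axis from 0) of the 10 receptor genes in each library, with 1 point per mouse and, beside the points, the mean ± SD of 4 libraries. *Il2ra* and *Il2rb* are ordered WT, DKO-moderate, DKO-severe with no overlap, *Il4ra* has the opposite order, from a mean of 368 to 91.4 CPM, and *Il21r* overlaps in all groups.

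The libraries of DKO-severe and WT did not overlap for 7 of the 10 genes, beside 51.9% of all tested genes. Those of DKO-moderate and WT did not overlap for 5 of 10 (*Il2ra*, *Il2rb*, *Il15ra*, *Il4ra*, and *Il6ra*), beside 24.8%. Those of DKO-severe and DKO-moderate did not overlap for 5 of 10 (*Il2ra*, *Il2rb*, *Il15ra*, *Il4ra*, and *Il27ra*), beside 21.3%. For single values the exact permutation test, two-sided over 4 libraries against 4, cannot go below p = 0.0286, which is its p wherever the groups do not overlap.

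*Il2ra*, which encodes CD25, the chain that gives the IL-2 receptor its high affinity, showed the largest change. It was read at 6.21, 14.1, 14.1, and 12.7 CPM in the 4 WT libraries, 40.6, 27.3, 31.6, and 43.1 CPM in DKO-moderate, and 123, 96.0, 91.5, and 78.1 CPM in DKO-severe. Every DKO-moderate library was above every WT library and below every DKO-severe library. The log2 fold change was 3.04 ± 0.26 (SE) in DKO-severe compared to WT (edgeR adjusted p = 7.13e-06), 1.60 ± 0.25 in DKO-moderate compared to WT (edgeR adjusted p = 0.00131), and 1.44 ± 0.24 between DKO-severe and DKO-moderate (edgeR adjusted p = 0.00422). The last of these tests the difference between both DKO changes, and *Il2ra* was the only member that rose in all 3 comparisons. Within DKO-severe, the library with the most *Il2ra* was also the library with the most neutrophil gene reads (DKO-severe 1). Without DKO-severe 1 and 2 and WT 3 together, a choice made after seeing the values, the change from WT was 2.95 (edgeR adjusted p = 0.000196) and that between DKO-severe and DKO-moderate was 1.25 (edgeR adjusted p = 0.0216).

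*Il2rb*, whose product CD122 is the signalling chain that the IL-2 and IL-15 receptors share, was read at 131, 191, 257, and 298 CPM in WT, 606, 628, 562, and 569 CPM in DKO-moderate, and 785, 757, 818, and 741 CPM in DKO-severe. The WT libraries spread over more than the libraries of either DKO group, and no groups overlapped. The gene rose by 1.82 ± 0.20 on the log2 scale in DKO-severe (edgeR adjusted p = 2.25e-05) and by 1.43 ± 0.19 in DKO-moderate (edgeR adjusted p = 0.000690). The difference between DKO-severe and DKO-moderate, 0.39 ± 0.19 on the log2 scale with a 95% interval of -0.02 to 0.81, did not pass (edgeR adjusted p = 0.157). It passed when only these groups were fitted (edgeR adjusted p = 0.0208) and when WT 1 was left out (edgeR adjusted p = 0.0435).

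*Il15ra*, the IL-15 binding chain, was among the lowest of the 10 genes. Its level was 8.07, 10.9, 7.24, and 10.99 CPM in WT, 13.6, 11.2, 11.4, and 12.1 CPM in DKO-moderate, and 9.22, 10.9, 10.3, and 9.55 CPM in DKO-severe. The DKO-moderate libraries were above all others, but by little, and the WT libraries enclosed those of DKO-severe. The log2 fold change from WT was 0.10 in DKO-severe, with a 95% interval of -0.24 to 0.45 (edgeR adjusted p = 0.595), and 0.38 in DKO-moderate, with an interval of 0.04 to 0.72 (edgeR adjusted p = 0.117). Its neighbour on chromosome 2, *Il2ra*, and its partner chain *Il2rb* both rose in the same libraries. The ratio of *Il15ra* to *Il2rb* per kb of exon was 0.0271 to 0.0595 in WT, 0.0172 to 0.0217 in DKO-moderate, and 0.0113 to 0.0138 in DKO-severe, with no overlap between the groups.

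*Il2rg*, the chain that all receptors of this branch need, was the most abundant of the 10 per length in every group. It was read at 709, 743, 652, and 702 CPM in WT, 732, 545, 668, and 726 CPM in DKO-moderate, and 510.3, 508, 557, and 512 CPM in DKO-severe. All DKO-severe libraries were below all WT libraries, and DKO-moderate 2 lay among those of DKO-severe. *Il2rg* fell by 0.43 ± 0.10 on the log2 scale in DKO-severe compared to WT (edgeR adjusted p = 0.00285). In DKO-moderate its log2 fold change was -0.07 ± 0.10 (95% interval -0.28 to 0.14, edgeR adjusted p = 0.643). The fall between DKO-severe and DKO-moderate was 0.36 (edgeR adjusted p = 0.0236) and was not called when any of 5 single libraries was left out, at an edgeR adjusted p of up to 0.0731. *Il2rg* lies on chromosome X, and Y-linked transcripts were at or near 0 in 4 of the 12 libraries (WT 2, DKO-moderate 2 and 4, and DKO-severe 3), so mice of both sexes were present. With a term for Y-linked transcripts in the fit the change from WT was -0.43 (edgeR adjusted p = 0.00439).

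The composition of the IL-2 receptor transcripts therefore differed between the groups. Per kb of exon, the ratio of *Il2rb* to *Il2rg* was 0.103 to 0.236 in WT, 0.436 to 0.641 in DKO-moderate, and 0.806 to 0.857 in DKO-severe. The ratio of *Il2ra* to *Il2rg* was 0.00366 to 0.00903, 0.0198 to 0.0248, and 0.0638 to 0.100, respectively. Both ratios were ordered in the same way with no overlap between groups. The ratio of *Il2ra* to *Il2rb* was 0.0321 to 0.0554 in WT and 0.0326 to 0.0569 in DKO-moderate, which overlapped, and 0.0792 to 0.117 in DKO-severe, which did not.

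*Il4ra*, the IL-4 binding chain, which also serves in the IL-13 receptor, was the member that fell most. Its level was 388, 388, 354, and 342 CPM in WT, 229, 131, 267, and 144 CPM in DKO-moderate, and 76.4, 109.8, 97.7, and 81.6 CPM in DKO-severe. The WT libraries lay close together at the top, DKO-moderate 1 and 3 lay well above DKO-moderate 2 and 4, and all DKO-severe libraries were below all others. The log2 fold change was -2.01 ± 0.21 in DKO-severe (edgeR adjusted p = 1.95e-05), -0.93 ± 0.21 in DKO-moderate (edgeR adjusted p = 0.00959), and -1.08 ± 0.21 between DKO-severe and DKO-moderate (edgeR adjusted p = 0.00635). The summed naive T cell genes split in the same way over the DKO-moderate libraries, at 2402, 1992, 2701, and 1834 CPM in DKO-moderate 1 to 4, so that mice 1 and 3 were again above mice 2 and 4. The summed level of 4 Y-linked genes was split in the same way, at 556, 0, 461, and 0.0265 CPM, so that naive genes and sex cannot be told apart within DKO-moderate. In the other groups the libraries with low Y-linked reads were WT 2 (*Il4ra* at 388 CPM) and DKO-severe 3 (97.7 CPM). With a Y-linked term in the fit the log2 fold change was -2.02 in DKO-severe (edgeR adjusted p = 2.28e-05) and -0.91 in DKO-moderate (edgeR adjusted p = 0.0114). That term concerns the change between groups and not the split within DKO-moderate. Whether the share of naive cells or sex has a part in the level of *Il4ra* was not tested.

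**Figure D2:**
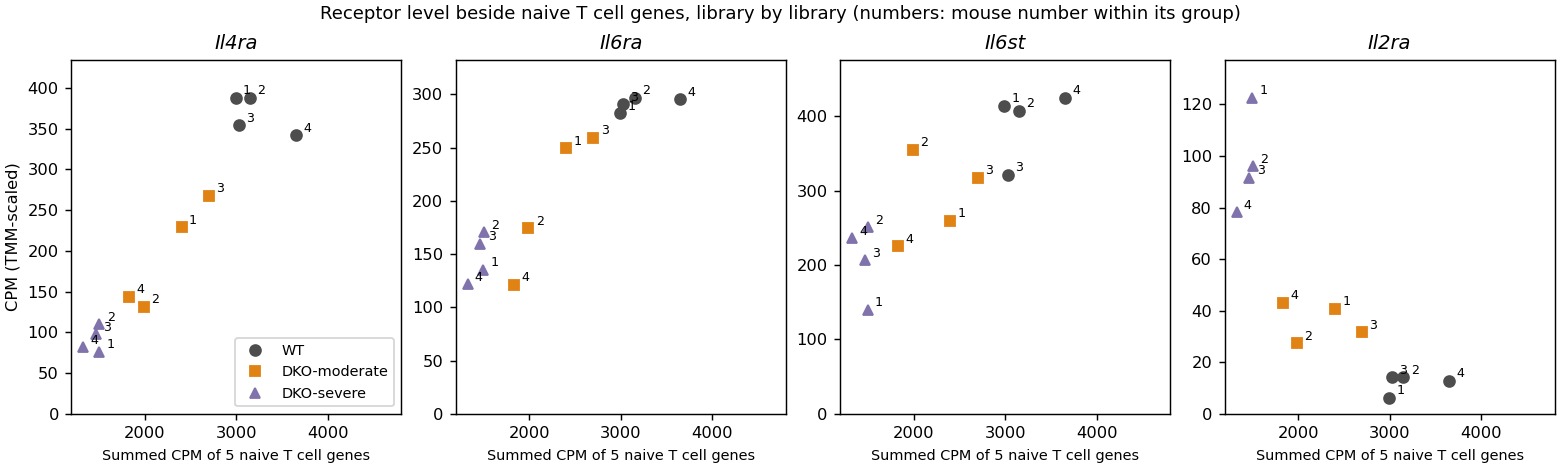
CPM of *Il4ra*, *Il6ra*, *Il6st*, and *Il2ra* (vertical, linear from 0) against the summed CPM of 5 naive T cell genes (horizontal) in the same 12 libraries, with 1 point per mouse labelled by its number within the group. DKO-moderate 1 and 3 lie between the WT and DKO-severe libraries for *Il4ra*, at 229 and 267 CPM, and DKO-moderate 2 and 4 lie next to DKO-severe, at 131 and 144 CPM.

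*Il9r*, the IL-9 binding chain, was read at 12.4, 15.4, 21.0, and 19.7 CPM in WT, 12.2, 11.2, 17.4, and 14.4 CPM in DKO-moderate, and 3.31, 15.7, 7.26, and 4.91 CPM in DKO-severe. DKO-severe 2 was inside the WT range, and the other DKO-severe libraries were below every library of both other groups. The gene passed in DKO-severe compared to WT, with a log2 fold change of -1.14 ± 0.39 (edgeR adjusted p = 0.0273), whereas the exact permutation test gave p = 0.0857. This call was lost when WT 3 or 4 or DKO-severe 1, 3, or 4 was left out, with an edgeR adjusted p of up to 0.0858, and the log2 fold change was -1.70 without DKO-severe 2 (edgeR adjusted p = 0.000548). DKO-severe 2 was also the library with the most B cell gene reads, and the part of these in its *Il9r* level was not tested. In DKO-moderate compared to WT the log2 fold change was -0.31 ± 0.38 (edgeR adjusted p = 0.610), and between DKO-severe and DKO-moderate it was -0.83 ± 0.39 (edgeR adjusted p = 0.142), or -1.38 without DKO-severe 2 (edgeR adjusted p = 0.00683).

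*Il21r*, which binds IL-21, the cytokine characteristic of T follicular helper cells, did not pass in any comparison. It was read at 206, 185, 223, and 214 CPM in WT, 239, 207, 234, and 211 CPM in DKO-moderate, and 201, 212, 173, and 186 CPM in DKO-severe. The 3 groups overlapped. The log2 fold change was -0.10 in DKO-severe compared to WT, with a 95% interval of -0.29 to 0.09 (edgeR adjusted p = 0.353), and 0.11 in DKO-moderate, with an interval of -0.09 to 0.30 (edgeR adjusted p = 0.434). The mRNA of its ligand was read in the same libraries at 4.17, 5.10, 7.33, and 16.6 CPM in WT, 57.5, 232, 114, and 174 CPM in DKO-moderate, and 227, 266, 297, and 325 CPM in DKO-severe. *Il21* thus changed by 5.06 ± 0.52 on the log2 scale in DKO-severe compared to WT (edgeR adjusted p = 1.63e-05), beside no called change of its receptor.

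Among the chains of the gp130 branch, *Il6st* (gp130 itself) was read at 414, 407, 321, and 424 CPM in WT, 259.6, 355, 317, and 225 CPM in DKO-moderate, and 139.7, 251, 206, and 236 CPM in DKO-severe. The DKO-severe libraries were below all WT libraries, and those of DKO-moderate overlapped both other groups. *Il6st* changed by -0.91 ± 0.19 on the log2 scale in DKO-severe (edgeR adjusted p = 0.00153). The log2 fold change of -0.44 ± 0.19 in DKO-moderate did not pass (edgeR adjusted p = 0.125), nor did that of -0.48 ± 0.19 between DKO-severe and DKO-moderate (edgeR adjusted p = 0.0875).

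*Il6ra*, which binds IL-6, was read at 282, 297, 291, and 296 CPM in WT, 249.5, 174, 259.5, and 121 CPM in DKO-moderate, and 135, 170.3, 159, and 122 CPM in DKO-severe. The 4 WT mice were nearly alike, and DKO-moderate split as for *Il4ra*, with mice 1 and 3 nearer to WT and mice 2 and 4, which had Y-linked reads at or near 0, at or near the level of DKO-severe. The log2 fold change was -0.99 ± 0.20 in DKO-severe (edgeR adjusted p = 0.00147) and -0.53 ± 0.20 in DKO-moderate (edgeR adjusted p = 0.0855). In DKO-moderate the test was thus not passed, although all DKO-moderate libraries were below all WT libraries (exact permutation p = 0.0286). *Il6ra* and *Il6st* moved by similar amounts, and their ratio per kb of exon was 0.876 to 1.16 in WT, 0.630 to 1.24 in DKO-moderate, and 0.663 to 1.24 in DKO-severe, which overlapped.

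*Il27ra*, the chain particular to the IL-27 receptor, was read at 318, 334, 262, and 312 CPM in WT, 309, 349, 299, and 317 CPM in DKO-moderate, and 248, 247, 227, and 208 CPM in DKO-severe. WT and DKO-moderate overlapped, and every DKO-severe library was below both. It changed by -0.40 ± 0.09 on the log2 scale in DKO-severe compared to WT (edgeR adjusted p = 0.00380) and by -0.45 ± 0.09 compared to DKO-moderate (edgeR adjusted p = 0.00839), and the log2 fold change between DKO-moderate and WT was 0.05, with a 95% interval of -0.15 to 0.26 (edgeR adjusted p = 0.727). The call against WT was lost when counts were scaled by library size alone (log2 fold change -0.21, edgeR adjusted p = 0.0996), a scaling that moved the median of all tested genes to 0.18.

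**Figure D3:**
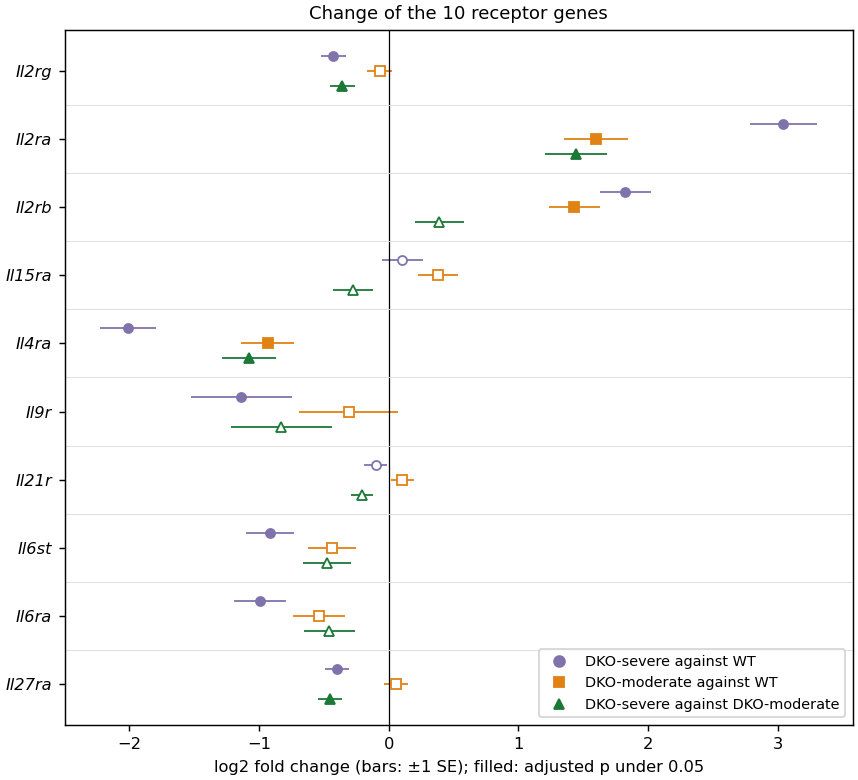
Log2 fold change of each receptor gene in the 3 comparisons, with bars of ±1 SE from edgeR and filled symbols where the adjusted p was under 0.05. *Il2ra* and *Il2rb* lie to the right of 0 in every comparison, *Il4ra* lies to the left in every comparison, and *Il15ra* and *Il21r* have open symbols in all 3.

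Terms for the mean log2 level of the neutrophil and the B cell genes were added to the fit. The summed neutrophil genes were higher in every DKO-severe library (9.88 to 2227 CPM) than in any other library (8.43 CPM or less). The fit thus cannot separate the group from the share of such cells, and a call kept or lost in it decides nothing about them. With both terms, 4 members passed in DKO-severe compared to WT. Their log2 fold changes were 2.75 for *Il2ra*, 1.89 for *Il2rb*, -1.50 for *Il4ra*, and -0.71 for *Il27ra* (edgeR adjusted p = 0.00493, 0.00966, 0.0370, and 0.0135). *Il6ra*, *Il6st*, *Il2rg*, and *Il9r* kept their sign but did not pass, with log2 fold changes of -0.68, -0.64, -0.29, and -0.88, in a fit that called 2176 genes in place of 8428. Leaving out DKO-severe 1 and 2 and WT 3 together kept all 8 calls, in a fit that called 6679 of 15497 genes. In DKO-moderate compared to WT, 4 members then passed (*Il6st* in addition, log2 fold change -0.52, edgeR adjusted p = 0.0426), beside 2562 of 15497 genes. Between DKO-severe and DKO-moderate, no member passed in edgeR with the neutrophil and B cell terms, 2 had an unadjusted p under 0.05, and 89 of all tested genes passed.

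Levels were compared between genes only per kb of the union of a gene's exons. In WT the order of the means was *Il2rg* (294 CPM per kb), *Il27ra* (87.8), *Il21r* (62.3), *Il4ra* (61.3), *Il2rb* (51.1), *Il6st* (35.3), *Il6ra* (33.7), *Il9r* (3.46), *Il15ra* (2.09), and *Il2ra* (2.06). Neighbours from *Il21r* to *Il6ra* in this order overlapped between their 4 libraries, as did *Il15ra* and *Il2ra*. In DKO-severe the order of CPM per kb was *Il2rg* (218), *Il2rb* (181), *Il27ra* (66.6), *Il21r* (58.1), *Il6st* (18.7), *Il2ra* (17.0), *Il6ra* (17.0), *Il4ra* (15.2), *Il15ra* (2.25), and *Il9r* (1.57). *Il2rb* thus moved from position 5 to position 2, *Il2ra* from 10 to 6, and *Il4ra* from 4 to 8, although the levels of *Il6st*, *Il2ra*, *Il6ra*, and *Il4ra* overlapped from neighbour to neighbour in DKO-severe, as did *Il27ra* and *Il21r*, and *Il15ra* and *Il9r*. DKO-moderate was between, with *Il2rb* at position 2 (138 CPM per kb), *Il4ra* at position 5 (32.1), and *Il2ra* at position 8 (6.24).

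**Figure D4:**
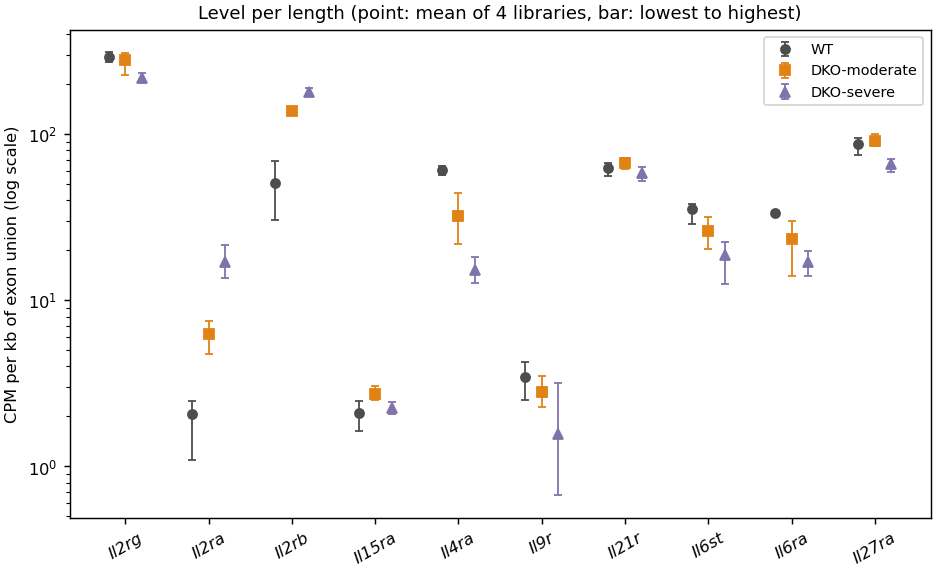
Level of each receptor gene in CPM per kb of exon union (log axis), as the mean of 4 libraries with bars from the lowest to the highest library. *Il2rg* is the highest in every group, from 294 CPM per kb in WT to 218 in DKO-severe, and *Il2ra* in WT is level with *Il15ra* at 2.06 and 2.09 CPM per kb.

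The rest of the pathway was read from lists of 49 genes, of which 46 were tested. In DKO-severe compared to WT, 15 rose, 13 fell, and 18 did not pass, with a median log2 fold change of 0.30, beside 52.6% of all tested genes that changed. In DKO-moderate compared to WT, 15 rose, 3 fell, and 28 did not pass (median 0.14), beside 17.1%, and between DKO-severe and DKO-moderate 4 rose, 4 fell, and 38 did not pass (median -0.06), beside 20.1%. Over all tested genes these medians were -0.01, 0.00, and -0.03. Of all tested genes, 26.6% rose and 25.9% fell in DKO-severe compared to WT, and 12.3% and 4.74% in DKO-moderate. Between DKO-severe and DKO-moderate, 9.41% rose and 10.7% fell. These shares stand beside the counts of every list that follows.

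Of 6 other receptor chains, *Il7r*, the IL-7 binding partner of the common gamma chain and a gene of naive and memory T cells, fell in DKO-severe. It was read at 692, 774, 994, and 670.5 CPM in WT, 708, 246, 668, and 355 CPM in DKO-moderate, and 230.4, 436, 234, and 184 CPM in DKO-severe. DKO-moderate split as for *Il4ra* and *Il6ra*, with mice 1 and 3 above mice 2 and 4, the mice low in Y-linked reads, and the log2 fold change from WT was -1.53 ± 0.34 in DKO-severe (edgeR adjusted p = 0.00278) and -0.66 ± 0.34 in DKO-moderate (edgeR adjusted p = 0.194). *Il11ra1*, the IL-11 binding chain, had a mean of 9.42 CPM in WT and 4.86 CPM in DKO-severe and also fell (log2 fold change -0.95 ± 0.22, edgeR adjusted p = 0.00379). *Osmr*, which pairs with gp130 for oncostatin M, had no read in any WT library and was at 6.49, 0.517, 6.93, and 8.38 CPM in DKO-severe, at least 266-fold higher against a floor of 3 reads over the WT libraries (edgeR adjusted p = 0.000658), with DKO-severe 2 far below the others. In DKO-moderate *Osmr* was at 0.186, 2.14, 0.696, and 0.265 CPM, at least 35.1-fold higher than that floor (edgeR adjusted p = 0.0144). *Il13ra1* rose between DKO-moderate and DKO-severe from a mean of 0.304 to 2.59 CPM (edgeR adjusted p = 0.0366), at 3.99, 5.02, 0.452, and 0.910 CPM in DKO-severe 1 to 4. The high values were those of DKO-severe 1 and 2, the libraries high in neutrophil genes, DKO-severe 3 was within the range of DKO-moderate (0.124 to 0.693 CPM), and the exact permutation test gave p = 0.0571. *Lifr* did not pass in any comparison, and *Cntfr* had too few reads to be tested.

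Among the ligands, 2 of the 5 tested gamma chain cytokines rose in DKO-severe, *Il21* and *Il4*, and 3 rose in DKO-moderate, where *Il2* was added. *Il4*, whose receptor chain fell, had a mean of 1.70 CPM in WT, 7.04 CPM in DKO-moderate, and 4.23 CPM in DKO-severe, and rose by 2.05 on the log2 scale in DKO-moderate (edgeR adjusted p = 0.00274) and by 1.32 in DKO-severe (edgeR adjusted p = 0.00806). *Il2* was at 1.01, 1.94, 1.84, and 1.83 CPM in WT, 3.27, 2.27, 3.13, and 3.47 CPM in DKO-moderate, and 3.50, 2.56, 2.05, and 2.25 CPM in DKO-severe. Its change passed in DKO-moderate (0.88, edgeR adjusted p = 0.0479) and not in DKO-severe (0.65, edgeR adjusted p = 0.0668). *Il7* and *Il15*, which are made mainly by non-T cells, had group means of 0.539 CPM or less, and *Il9* had reads in 1 library only.

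Of 8 tested ligands of gp130 receptors, *Lif* and *Ebi3* rose and *Osm* and *Clcf1* fell in DKO-severe. *Lif*, leukaemia inhibitory factor, was read at 1.41, 2.52, 1.67, and 2.02 CPM in WT, 14.1, 54.8, 13.2, and 25.8 CPM in DKO-moderate, and 87.0, 56.2, 103, and 108 CPM in DKO-severe. The groups did not overlap, and the log2 fold change was 5.54 ± 0.49 in DKO-severe compared to WT (edgeR adjusted p = 8.27e-06) and 1.72 ± 0.40 compared to DKO-moderate (edgeR adjusted p = 0.0136). *Lifr*, which its signal needs together with gp130, was read at 0, 0.0323, 1.64, and 0.0273 CPM in WT, 0.0795 to 0.126 CPM in DKO-moderate, and 1.46, 3.84, 0.119, and 0.335 CPM in DKO-severe. Its highest values were thus those of WT 3 and DKO-severe 1 and 2, the libraries high in B cell or neutrophil genes, and its change did not pass (edgeR adjusted p = 0.275 in DKO-severe compared to WT). *Ebi3*, a subunit of IL-27, rose by 1.65 ± 0.34 on the log2 scale (edgeR adjusted p = 0.00147), whereas its partner *Il27* was at 0.189 CPM or less in every library. *Il6* was at 0.292 CPM or less in every library.

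The kinases moved in different directions. *Jak3*, the partner of the common gamma chain, was read at 159.9, 169, 122, and 182 CPM in WT, 238, 345, 227, and 243 CPM in DKO-moderate, and 368, 325, 347, and 365 CPM in DKO-severe, and rose by 1.15 ± 0.15 on the log2 scale in DKO-severe (edgeR adjusted p = 6.55e-05), while *Il2rg* fell. *Jak1*, which serves both branches, changed by -0.65 ± 0.12 (edgeR adjusted p = 0.000949), *Jak2* by 0.53 ± 0.13 (edgeR adjusted p = 0.00426), and the log2 fold change of *Tyk2* was 0.02 (edgeR adjusted p = 0.890). Of 4 STAT genes, *Stat5a* rose (0.39, edgeR adjusted p = 0.0373) and *Stat5b* (-0.72, edgeR adjusted p = 0.000182) fell in DKO-severe. For *Stat5a* the groups overlapped, with DKO-severe 2 (95.3 CPM) below every WT library (97.1 to 108 CPM), and the exact permutation test gave p = 0.143. *Stat3* and *Stat6* did not pass in any comparison.

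Of 6 feedback inhibitors, *Socs2* (1.36, edgeR adjusted p = 0.00740) and *Cish* (0.88, edgeR adjusted p = 0.0146), both known as genes induced by STAT5, rose in DKO-severe, and both also rose in DKO-moderate (1.25 and 0.99, edgeR adjusted p = 0.0314 and 0.0233). The libraries of DKO-severe and WT overlapped for *Cish* (exact permutation p = 0.0857). *Socs1* (-0.33) and *Ptpn2* (-0.35) fell in DKO-severe (edgeR adjusted p = 0.0224 and 0.00254). *Socs3*, the inhibitor that binds gp130, fell between DKO-moderate and DKO-severe by 0.75 on the log2 scale (edgeR adjusted p = 0.0174), and its log2 fold change of -0.42 from WT did not pass (edgeR adjusted p = 0.0757).

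Of 5 adaptors, *Gab2* (3.89, from a mean of 0.640 to 9.55 CPM) and *Ptpn11* (0.62) rose in DKO-severe, and *Irs2* (-1.81), a substrate docked by the IL-4 receptor, and *Grb2* (-0.35) fell (edgeR adjusted p = 0.000466, 0.0153, 0.000747, and 0.0199). Of 7 genes known to respond to these receptors, *Pim2* (1.56) and *Bcl3* (1.37) rose in DKO-severe, and *Pim1* (-0.92), *Mcl1* (-0.68), and *Myc* (-0.73) fell (edgeR adjusted p = 1.50e-05, 8.04e-05, 0.00186, 0.00246, and 0.00413). *Adam10* rose (0.60, edgeR adjusted p = 0.000597), and *Adam17*, the protease known to shed the IL-6 receptor, did not pass (0.04, edgeR adjusted p = 0.716).

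**Figure D5:**
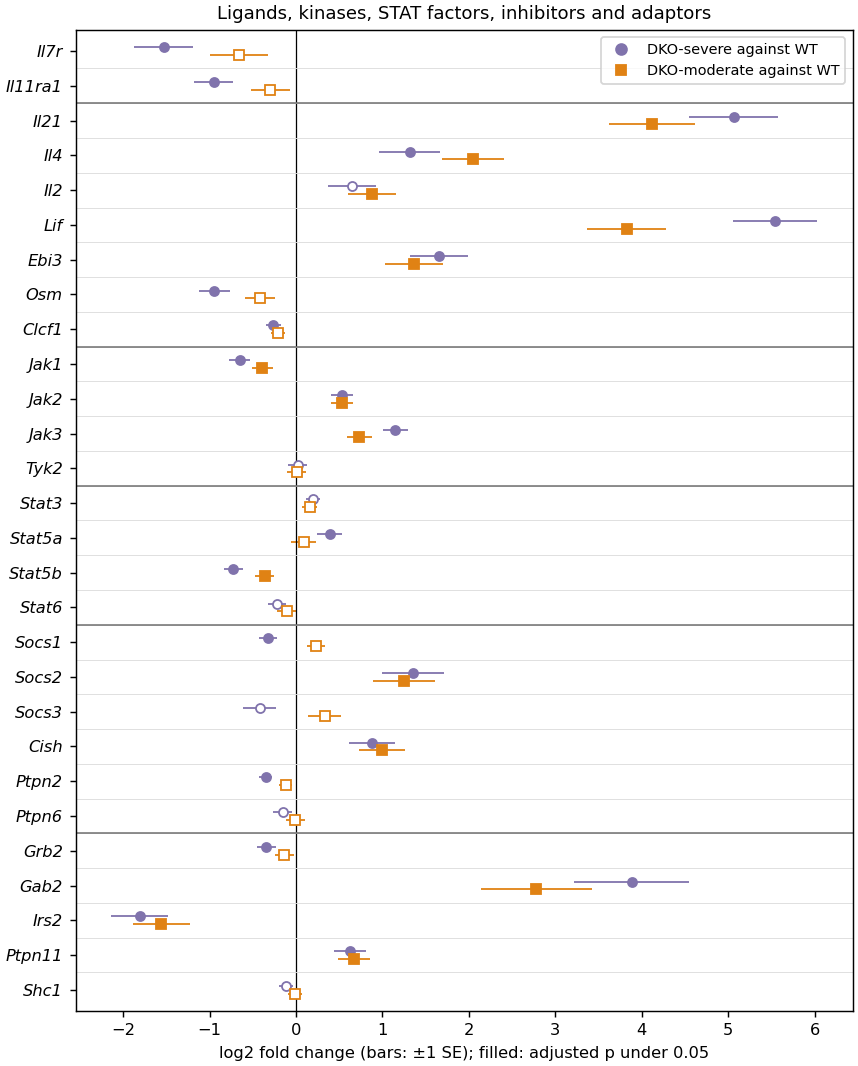
Log2 fold changes against WT of a selection of the tested pathway genes (circles for DKO-severe, squares for DKO-moderate). Drawn are *Il7r*, *Il11ra1*, ligands, kinases, STAT factors, inhibitors, and adaptors, while others such as *Osmr* are not drawn. Bars are ±1 SE from edgeR, symbols are filled where the adjusted p was under 0.05, and lines separate the functional groups. Among the genes drawn, *Il21* and *Lif* lie farthest to the right, at 5.06 and 5.54 in DKO-severe, and *Irs2* farthest to the left.

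Markers of other cell types were set beside these results for whole lists. All 9 neutrophil genes rose in DKO-severe compared to WT, 7 rose between DKO-severe and DKO-moderate, and 1 rose in DKO-moderate. Of 7 monocyte and macrophage genes, 3 rose in DKO-severe, with summed levels of 21.9 to 216 CPM in WT, 64.4 to 122 CPM in DKO-moderate, and 143 to 568 CPM in DKO-severe. Plasma cell genes (2 of 5 rose, with *Jchain* and *Mzb1* read under older symbols) summed to 0.690 to 89.1, 2.84 to 26.1, and 51.1 to 198 CPM, and the 8 B cell genes to 1.18 to 208, 2.21 to 3.78, and 17.0 to 317 CPM. Dendritic cell genes (1 of 5 rose) summed to 4.54 to 13.4 CPM in DKO-severe. The gene that rose was *Zbtb46*, at 11.8, 1.67, 9.35, and 12.5 CPM in DKO-severe 1 to 4. It made most of the sum in DKO-severe 1, 3, and 4. The log2 fold changes of *Xcr1*, *Clec9a*, *Siglech*, and *Flt3* from WT were -1.15, -0.11, -0.27, and 0.63, and none passed. In DKO-severe, erythroid genes (1 of 4 rose) summed to 11.1 to 46.1 CPM, and mast cell and basophil genes (3 of 5 rose) to 1.98 to 18.2 CPM. The 4 NK cell genes summed to 1.39 to 7.04 CPM there, and CD8 genes (1 of 2 fell) to 1.03 to 13.2 CPM. The 8 general T cell genes in the tables summed to 4504 to 5139 CPM in WT, 4960 to 5227 CPM in DKO-moderate, and 3896 to 4391 CPM in DKO-severe. Of the 5 naive T cell genes, 4 fell in DKO-severe and 3 in DKO-moderate. Over all tested genes, 26.6% rose and 25.9% fell in DKO-severe compared to WT, and 12.3% and 4.74% in DKO-moderate. Between DKO-severe and DKO-moderate 9.41% rose.

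Of 7 Treg genes, *Ikzf2*, *Nrp1*, *Ctla4*, and *Tnfrsf18* rose in DKO-severe and *Foxp3* and *Ikzf4* fell, and the summed level of the 7 was 145 to 254 CPM in WT, 398 to 703 CPM in DKO-moderate, and 728 to 844 CPM in DKO-severe. These sums are ordered as *Il2ra* and *Il2rb* are, with no overlap between groups. Between DKO-severe and DKO-moderate, however, 0 of the 7 Treg genes passed in edgeR. Of these, 3 had an unadjusted edgeR p under 0.05, and DESeq2 called 2. The part of any of these cell types in the receptor levels was not tested, as the neutrophil term follows the groups.

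For each receptor gene, the 2 genes with the most similar pattern over the 12 libraries were sought among 9986 genes with a mean of at least 5 CPM, as the smallest root mean square difference of centred log2 CPM. The closest matches were found for *Il21r* (*Zfp706* at 0.0491 and *Dnaja2* at 0.0738) and *Il2rg* (*Nsa2* at 0.0578 and *Rpl10* at 0.0588), which vary little themselves. *Il4ra* was most like *Chd7* (0.106) and *Acvr1b* (0.129), and *Chd7* had means of 176, 101, and 49.2 CPM in WT, DKO-moderate, and DKO-severe. *Il2ra* had no close match, with *Mdfic* at 0.360 and *Wee1* at 0.367, and *Mdfic* had means of 21.2, 74.7, and 137 CPM. The others were *Il2rb* (*Tnfsf14* at 0.174 and *Pcgf2* at 0.201), *Il15ra* (*Gimap7* at 0.135 and *2310045N01Rik* at 0.151), *Il9r* (*Cnr2* at 0.218 and *St8sia4* at 0.272), *Il6ra* (*Dennd1b* at 0.0897 and *Atp11b* at 0.0910), *Il6st* (*Arhgef10* at 0.161 and *Slc28a2* at 0.177), and *Il27ra* (*Aup1* at 0.0872 and *Lemd2* at 0.100). These distances describe the 12 libraries and carry no test.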

How the data were processed

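RNA was sequenced from 12 samples of sorted T cells, 1 per mouse. Per the paper's methods, the authors prepared directional libraries, aligned them to mm10 with STAR 2.7.11, retained uniquely placed reads, and summed them by gene with htseq-count set to reverse-stranded libraries. The annotation behind the counts is not given in the sources used here. The deposited values are raw counts without normalization. Reads not assigned to a gene (18.53% to 23.73% of a library) were left out.

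Genes were tested if the libraries of any condition together held 10 or more reads. All 12 libraries entered 1 fit with TMM scaling, and changes were called with the quasi-likelihood F test of edgeR 4.0.16 (R 4.3.3) at a Benjamini-Hochberg adjusted p under 0.05, where the adjustment covers every tested gene. SE is the size of the log2 fold change over the square root of F. Alternatives were DESeq2 1.42.0, which the authors used, limma 3.58.1 (voom), other scalings and filters, fits of only the groups compared, a replicate block, terms for Y-linked and for neutrophil and B cell genes, and leaving out libraries. Permutation tests used scipy 1.17.1. Levels per kb divide CPM by the union of GENCODE M21 exons. No library was a copy of another of its group.

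Named genes are the 10 receptor genes, genes of the pathway and marker lists, *Foxp3*, *Tet2*, *Tet3*, and the 2 genes most similar in pattern to each receptor gene. The receptor genes and lists were chosen with earlier results of these data known. The older symbols of 4 list genes were matched through RefSeq, and *Trac* was not matched. From the lists, 2 genes are not reported here and were left out of every count and sum.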

Additional observations from a re-analysis of the deposited data

Results flagged for a closer look

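For 4 of the 10 receptor genes the change from WT differed between DKO-severe and DKO-moderate, by edgeR's test of the difference itself. Of all tested genes, 20.1% were called in that comparison. The call for *Il2rg* was lost when any of 5 single libraries was left out. The difference was 1.44 on the log2 scale for *Il2ra*, -0.36 for *Il2rg*, -1.08 for *Il4ra*, and -0.45 for *Il27ra*. For *Il2ra* and *Il4ra* both groups moved in the same direction from WT and DKO-severe moved further.

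Of the 30 groups of 4 libraries, 10 genes in 3 groups, 2 held a library far from the other 3, and chance gives such a library in about 1 in 20 groups. *Il2rg* in DKO-severe 3 was at 557 CPM, above 508 to 512 CPM in the other DKO-severe libraries. *Il6st* in WT 3 was at 321 CPM, below 407 to 424 CPM in the other WT libraries, and WT 3 was also the WT library with the highest summed level of B cell genes (208 CPM).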

How the results depend on the processing

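Over all settings, 642 refits of a receptor gene's change kept their direction and their side of the threshold, 25 lost a call, 15 gained one, and 8 changed sign, each of these in a change that had not passed. The sign changed for *Il21r* in DKO-severe against WT (0.084 with library size alone) and for *Il15ra* in the same comparison (-0.0037 without DKO-severe 1 and 2 and WT 3, a choice made after seeing the data). In DKO-moderate against WT it changed for *Il2rg* (0.0040 with library size alone, and -0.12 to 0.015 over the fits without 1 library, with 0.015 without DKO-moderate 2) and for *Il27ra* (-0.019 in limma voom, -0.050 with neutrophil and B cell terms, -0.015 without DKO-severe 1 and 2 and WT 3, and -0.015 to 0.097 over the fits without 1 library, with -0.015 without WT 3). The cause was not tested.

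In DKO-severe against WT, the neutrophil and B cell terms left 4 of 8 receptor calls and 2176 of 8428 genes. In DKO-moderate against WT, DESeq2 called 5 receptor genes in place of 3 (*Il15ra* and *Il6ra* in addition) and 3933 genes in place of 2734, and the 2734 became 1780 with the neutrophil and B cell terms, 1142 at an adjusted p under 0.01, and 1616 to 2920 when a library was left out, with 1616 without WT 1 and 1707 without WT 2. In DKO-severe against DKO-moderate, limma voom called 8 receptor genes in place of 4, and edgeR with the neutrophil and B cell terms called 0, with 2 at an unadjusted p under 0.05. The 3217 genes became 6126 in limma voom, 89 with those terms, 926 at an adjusted p under 0.01, 2055 without DKO-severe 1 and 2 and WT 3, and 1646 to 3670 when a library was left out. The low counts were 1646 without DKO-moderate 1, 1815 without DKO-moderate 3, and 1971, 1997, and 1989 without DKO-severe 1, 3, and 4. Leaving out 1 library gave 7 to 8, 3 to 4, and 3 to 5 receptor calls in the 3 comparisons.

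The labels only number the mice. Deviations of same-numbered libraries from their group means had correlations of -0.272 to 0.208 (median -0.034). For libraries of different numbers they were -0.318 to 0.303 (median 0.013). The numbers thus showed no sign of pairing, which does not exclude a shared batch. With the replicate block, 7794, 2201, and 2321 genes were called, and *Il2rg* between DKO-severe and DKO-moderate lost its call (-0.35, edgeR adjusted p = 0.0549), the only receptor call that it changed. Without division by length, 18 of 30 ranks of the receptor genes moved. With 4 mice a group, a difference that did not pass is not shown to be absent.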
